A study of Drosophila melanogaster with 9 samples.

Results

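The highest and the lowest level of Chinmo in neural tumors of *Drosophila melanogaster* larvae were compared across all genes. Of the 9 libraries of the series, 6 were used here, chosen by the genotype in their labels alone: replicates A, B and C of *nab>prosRNAi, chinmo* (called PCC), and replicates A, B and C of *nab>prosRNAi, chinmoRNAi* (called PC). The 3 libraries of *nab>prosRNAi* (called P), in which *chinmo* was neither forced nor silenced, lie between them and enter only where a gene is followed through the steps from PC to P and from P to PCC. All 9 libraries carry *nab-GAL4*, *UAS-prosperoRNAi* and *UAS-dicer2*. PCC adds *UAS-chinmoFL*, a transgene that expresses *chinmo*, and PC adds *UAS-chinmoRNAi*, so that the contrast sets forced expression against silencing and holds no condition with an unmanipulated *pros* gene. *nab-GAL4* is a GAL4 trap in the *nab* gene that is active in the neuroblasts (NBs) of the ventral nerve cord (VNC) and central brain. RNA came from whole VNCs, so that neurons, glia and cells outside the driver's reach are in every library. Crosses spent 7 days at 18°C before the switch to 29°C, and VNCs of late larvae (wandering L3 in the labels) were dissected 3 days after it. The replicates are given as biological triplicates and pooled 51, 60 and 82 brains in PCC and 70, 58 and 78 in PC, in an order not tied to the replicate letters.

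NBs are the stem cells of the fly nervous system. They divide asymmetrically, and each division leaves a smaller daughter that enters differentiation once the transcription factor Prospero (Pros) enters its nucleus. Without Pros these daughters revert to NB-like cells and form tumors. Chinmo is a BTB zinc finger protein of early larval NBs and of the neurons born from them. It acts beside the RNA-binding proteins Imp and Lin-28, whereas the RNA-binding protein Syncrip (*Syp*) and the ecdysone-induced factor Eip93F belong to late NBs.

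*chinmo* (Entrez gene 33343, chromosome arm 2L) was at 71836, 89792 and 81295 normalized counts in PCC libraries A, B and C, against 5427, 6330.2 and 4518 in PC libraries A, B and C. Every PCC library lay more than 10-fold above every PC library. The mean was 80974 ± 8982 in PCC and 5425 ± 906 in PC (SD, n = 3 each), a ratio of means of 14.9, with a log2 difference of 3.91 (standard error 0.15, limma with Benjamini-Hochberg adjustment, adjusted p = 4.99e-05). Transcripts of the transgene and of the endogenous gene are not separated by these counts, and neurons outside the driver's reach keep theirs, so the values do not measure Chinmo within NBs. *Dcr-2*, which the *UAS-dicer2* transgene of all conditions raises, was at 149980, 184179 and 183046 in PCC and 27234, 26758 and 21190 in PC (log2 difference 2.78, SE 0.16, limma adjusted p = 9.13e-05). *nab*, in which the GAL4 trap lies, was at 22174, 23569 and 19520.3 in PCC and 13334, 10181 and 10919.6 in PC (log2 difference 0.93, SE 0.13, limma adjusted p = 0.0017). Both readouts of the driver were thus higher in PCC by different amounts, although the driver and *UAS-dicer2* were the same. *pros*, the RNAi target in all conditions, was at 8607, 10751 and 9584 in PCC and 35040.2, 42387 and 31510.1 in PC (log2 difference -1.91, SE 0.14, limma adjusted p = 0.000194). Genes that mark insertions also differed. *white* (*w*), the eye colour gene that marks UAS insertions, had a log2 difference of 0.99 (limma, adjusted p = 0.00595), and *vermilion* (*v*), the marker of the TRiP collection of RNAi lines to which the *chinmoRNAi* line belongs, was at 93.1, 7.74 and 33.5 in PCC and 304, 328 and 341 in PC (log2 difference -3.41, SE 0.77, limma adjusted p = 0.0104). The difference of *v* was -4.22 without PCC A and -2.51 without PCC B.

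The 6 libraries hold 30677075 (PC B) to 40518948 (PCC A) reads on genes, and genes below 3 reads were treated as at the counting floor. The PC libraries differed from one another along transcript length, with a Spearman correlation across genes, between length and the difference of a library from the mean of its condition, of 0.314 in A, 0.501 in B and -0.54 in C, against -0.00782 to 0.0329 in the PCC libraries. PCC A stood apart by genes of the gut, with a summed level of 47304 normalized counts over a list of 31 gut and Malpighian tubule genes, against 1676 and 1433 in PCC B and C and 953 to 2323 in PC. For some, but not all, of the results that rest on PCC A or PC C, values without them are given below. With 3 libraries against 3, an exact permutation test of a single gene cannot go below p = 0.1, so calls rest on the model fitted across all genes.

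Of 11586 genes tested, 2305 (19.9%) were higher and 2626 (22.7%) were lower in PCC than in PC (limma, Benjamini-Hochberg adjusted p under 0.05), or 4931 (42.6%) in either direction. The 3 PCC libraries did not overlap the 3 PC libraries for 6506 genes (56.2%), and for 4917 (42.4%) of the genes tested both held. The directions differed in kind. Genes higher in PCC were abundant and moved little, with a median 1.59-fold difference, a median level of 2547 normalized counts in PCC and 1612 in PC, and 931 of the 2305 (40.4%) under 1.5-fold. Genes lower in PCC were scarcer and moved more, with a median 2.89-fold difference, a median level of 377 in PCC and 1064 in PC, and 328 of the 2626 (12.5%) under 1.5-fold. A log2 difference of at least 1 was reached by 498 of the higher and 1872 of the lower genes, and one of at least 3 by 75 and 237. The median standard error of the log2 difference was 0.12 among the higher and 0.24 among the lower genes. As a share of all normalized counts, the genes called higher made up 36.5%, 38.2% and 36.7% in PCC and 24.7%, 23.7% and 20.7% in PC. The genes called lower made up 9.19%, 8.98% and 8.15% in PCC and 20.6%, 22.9% and 19.3% in PC. These shares describe genes that the test itself picked. The size of each direction depends on the scaling: with all libraries scaled to the same total, 1608 genes were higher and 2964 lower, and with quantile normalization 2945 were higher and 2186 lower. In bulk RNA of whole VNCs, fewer cells of a type and less RNA per cell cannot be told apart.

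**Figure D1:**
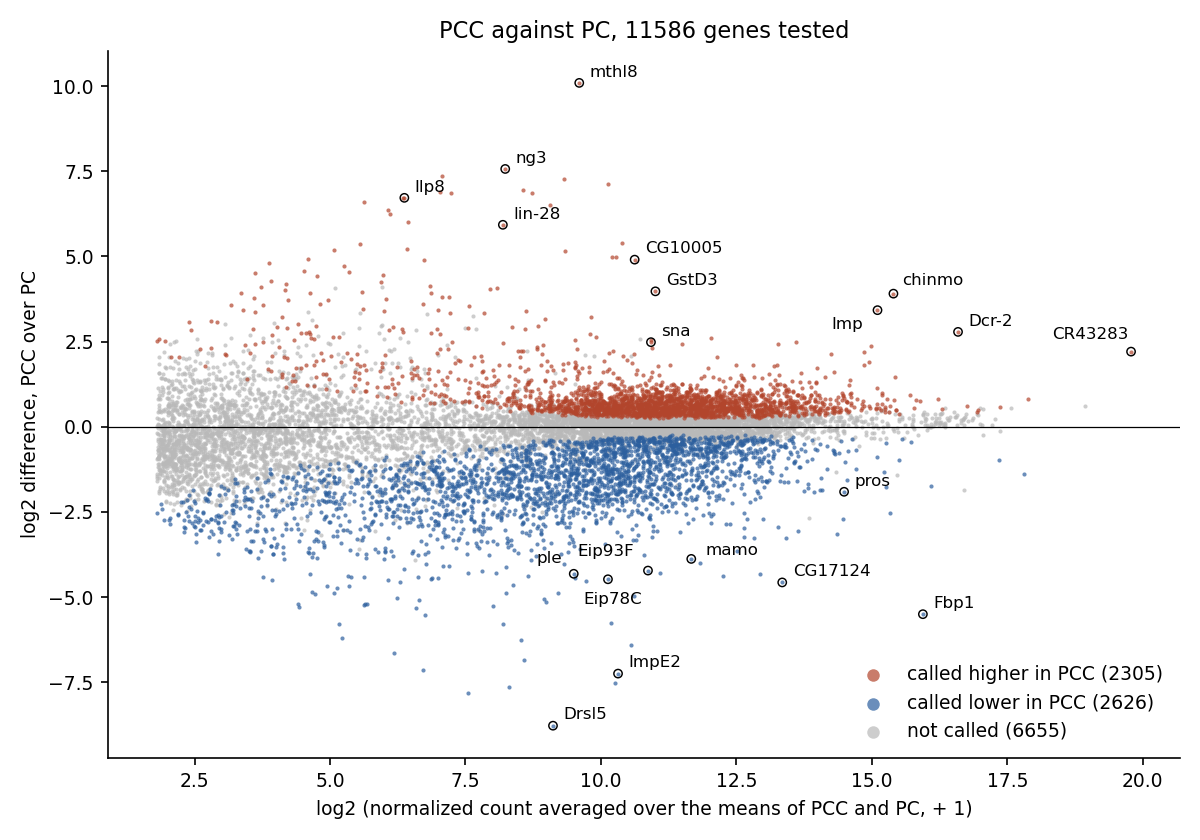
Each point is one of the 11586 genes tested; the x axis gives its abundance, as the log2 of the normalized count averaged over PCC and PC with 1 added, and the y axis the log2 difference of PCC over PC, with red for the 2305 genes higher in PCC, blue for the 2626 lower and grey for genes that did not pass. The higher genes form a dense band under a difference of 1 among abundant genes, the lower genes spread further down at lower abundance, and circles mark genes named in the text.

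Among 15 temporal and early-late NB factors, 6 were higher and 6 lower in PCC (40% each, against 19.9% and 22.7% of all genes tested). Besides *chinmo* itself, the differences were largest on the higher side for a pair of RNA-binding proteins. *lin-28* (Entrez gene 38639, 3L), an RNA-binding protein of early NBs that in mammals blocks maturation of the let-7 microRNA, was at 607, 595 and 517 in PCC and 13, 6.87 and 6.56 in PC (log2 difference 5.93, SE 0.32, limma adjusted p = 8.35e-05). *Imp* (Entrez gene 32009, X), the fly IGF-II mRNA-binding protein, was at 59299.6, 85036 and 49217 in PCC and 6423, 6906 and 4535 in PC (log2 difference 3.42, SE 0.24, limma adjusted p = 0.000165). The lowest PCC library stood above the highest PC library by several fold for both. *Dichaete* (*D*), a Sox factor of early NBs, was also higher, at 1923, 1956 and 1740.0 in PCC and 806, 877 and 671 in PC (log2 difference 1.26, SE 0.13, limma adjusted p = 0.000487). *grainyhead* (*grh*) and *svp*, a nuclear receptor whose pulse closes the early window, were higher by log2 differences of 0.73 (limma, adjusted p = 0.0085) and 0.65 (limma, adjusted p = 0.00394).

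The lower members were led by *Eip93F* and *mamo*. *Eip93F* (Entrez gene 44936, 3R) was at 175, 148 and 258 in PCC and 3853, 3689.7 and 3088 in PC (log2 difference -4.22, SE 0.21, limma adjusted p = 7.66e-05). *mamo* (Entrez gene 32353, X), a BTB zinc finger gene of later-born neurons, was at 397, 369.5 and 449 in PCC and 7373, 6589 and 4331 in PC (log2 difference -3.88, SE 0.20, limma adjusted p = 7.91e-05). For both, every PCC library lay several fold below every PC library. The paired POU factors *nubbin* (*nub*) and *pdm2* fell too, *pdm2* to 59.9, 63.1 and 46.3 in PCC, against 388, 474 and 328 in PC (log2 difference -2.79, SE 0.24, limma adjusted p = 0.000262), and *nub* by a log2 difference of -2.11 (limma, adjusted p = 0.000407). *castor* (*cas*), the factor that follows them in the embryonic series, was at 3641, 3795 and 3821 in PCC and 12321, 8964 and 7647 in PC (log2 difference -1.33, SE 0.17, limma adjusted p = 0.00104). *Kruppel* (*Kr*), of the same series, had a difference of -0.83 (limma, adjusted p = 0.0225), which missed the threshold without PC A or PC B (adjusted p = 0.0653 and 0.0691). The call of *Kr* was also lost with quantile normalization and with PCC A and PC C both left out. Over all alternatives its adjusted p reached 0.105. The remaining 3 members did not pass. *Syp*, the late counterpart of *Imp*, was at 37700.5, 41292 and 50345 in PCC and 58091, 50105 and 38046 in PC, overlapping between conditions, with a log2 difference of -0.17 whose 95% confidence interval ran over -0.62 to 0.29 (limma, adjusted p = 0.536). The differences of *broad* (*br*) and *hunchback* (*hb*) were -0.33 (limma, adjusted p = 0.41) and -0.81 (limma, adjusted p = 0.153).

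**Figure D2:**
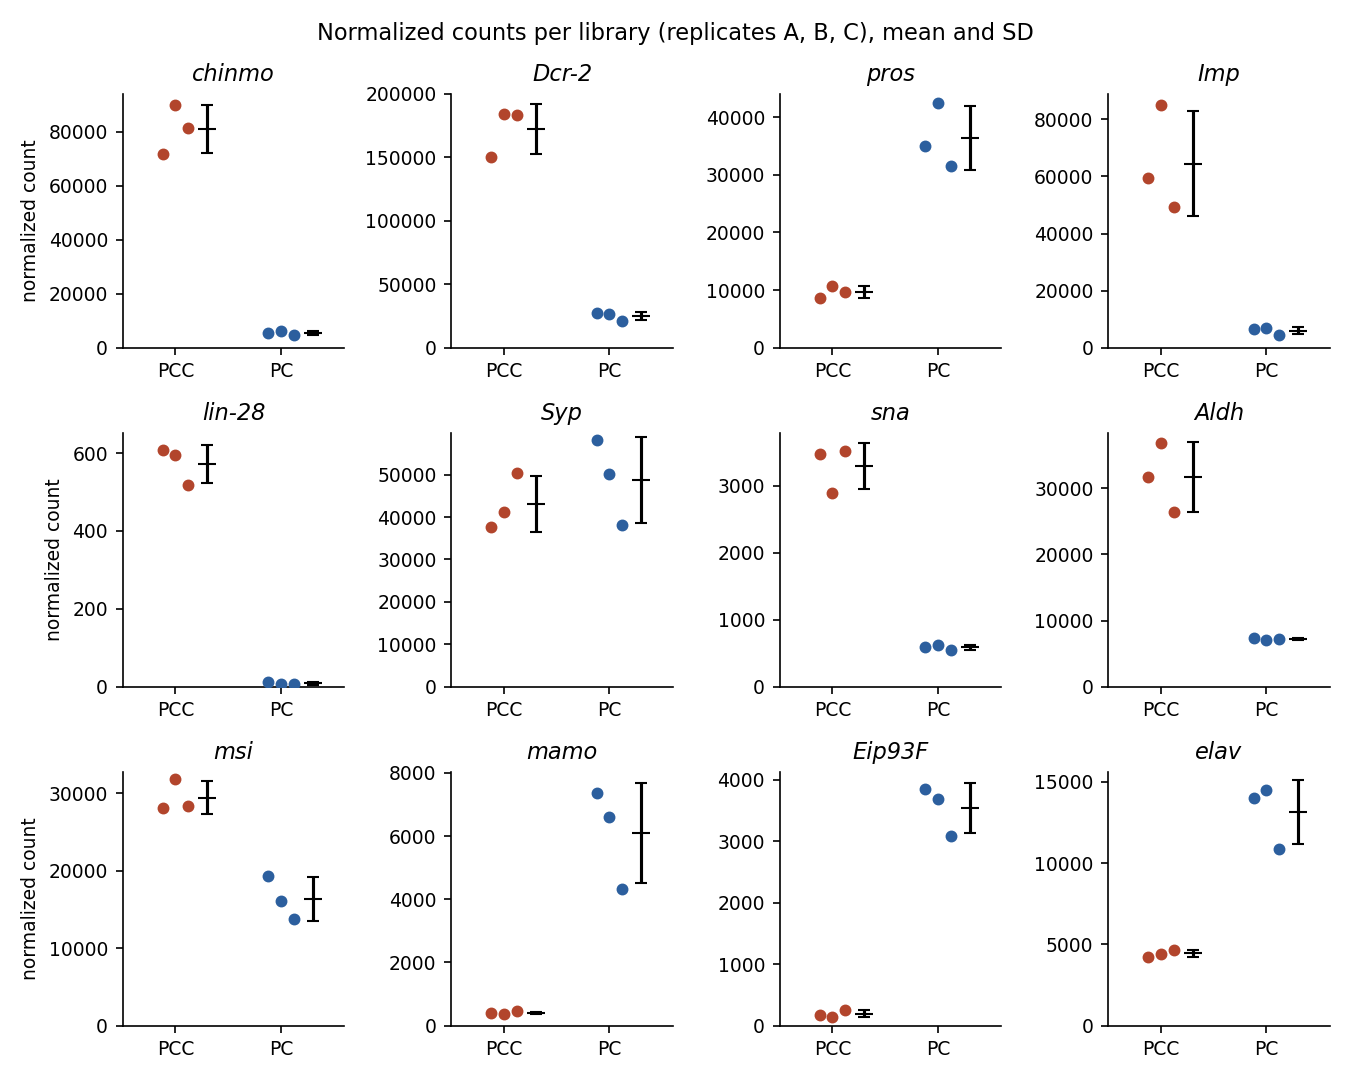
Normalized counts on a linear axis in each library (points, replicates A, B and C from left to right), with the mean and SD of 3 libraries beside them, PCC left of PC in each panel. PCC and PC libraries are apart in every panel but that of *Syp*, where the PCC libraries span 37700.5 to 50345 and the PC libraries 38046 to 58091.

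Genes that mark NBs were higher in PCC for 12 of 19 tested (63.2%, against 19.9% of all genes tested). They were lower for 0 (1 at an unadjusted p under 0.05 in limma, 0 in edgeR and 1 in DESeq2). The median log2 difference of these genes was 0.48, against -0.03 over all genes tested. *snail* (*sna*), a zinc finger factor of NBs and of epithelial-mesenchymal transition, led them with 3469, 2898 and 3518 in PCC and 586, 627 and 548 in PC (log2 difference 2.48, SE 0.12, limma adjusted p = 5.62e-05). The transcription factors that define the NB state followed with closely similar sizes. *klumpfuss* (*klu*) had a log2 difference of 1.36 (limma, adjusted p = 0.000421) and *worniu* (*wor*) one of 1.21 (limma, adjusted p = 0.000473). *deadpan* (*dpn*) was at 15411, 13934 and 13758 in PCC and 7068, 5345 and 5583 in PC (log2 difference 1.27, SE 0.13, limma adjusted p = 0.000451), and *asense* (*ase*) at 7993, 8516 and 8833 in PCC and 4980.2, 4114 and 3900.2 in PC (log2 difference 0.97, SE 0.11, limma adjusted p = 0.000786). The cortical proteins that carry out asymmetric division moved less. *miranda* (*mira*), the adaptor that segregates Pros into the daughter, was at 43923, 35608 and 49208 in PCC and 34418, 29033 and 28201 in PC (log2 difference 0.48, SE 0.16, limma adjusted p = 0.0416), and it missed the threshold without PCC A, PCC C, PC B or PC C (adjusted p 0.0661 to 0.14) and with either scaling above (0.117 and 0.155). *aPKC*, *raps*, *stau*, *insc* and *brat* did not pass, with log2 differences of 0.06, -0.03, -0.09, 0.33 and -0.55 (limma, adjusted p = 0.753, 0.831, 0.663, 0.171 and 0.0504). *brat*, whose loss turns daughters of NBs into tumors, lay close to the threshold and was called lower in PCC in 10 of 21 alternatives (adjusted p 0.00545 to 0.152 over all of them), among them both scalings above, DESeq2 and the fits without PCC C or PC C. The number of NB genes called higher was 7 without PCC A, 8 without PCC C, 9 without PCC B and 10 to 12 without a PC library. The median step of the NB list was 0.71 for P over PC and 0.04 for PCC over P. Its summed level was 221307, 213214 and 196529 normalized counts in P, against 175161 to 208479 in PCC. *musashi* (*msi*) and *Aldehyde dehydrogenase* (*Aldh*), an RNA-binding protein and a metabolic enzyme used as stem cell markers in mammals, were higher in PCC. *msi* was at 28079.6, 31890.1 and 28338 in PCC and 19374, 16113 and 13704 in PC (log2 difference 0.86, SE 0.15, limma adjusted p = 0.00325), and *Aldh* at 31747, 36928 and 26444 in PCC and 7404, 7040.4 and 7153 in PC (log2 difference 2.13, SE 0.13, limma adjusted p = 0.000121).

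Genes of ribosome building and of DNA replication were higher in PCC almost throughout their lists, by small and uniform amounts. In the list of RNA polymerase I and ribosome assembly, 45 of 47 were higher (95.7%, against 19.9% of all genes tested) and 0 lower. The median log2 difference was 0.87, with none above 1.10. *RpI135* and *RpI1*, the core subunits of the polymerase that transcribes ribosomal RNA, were at 5067, 5225 and 5560.0 and at 11504, 12802 and 13078 in PCC, against 2884, 2653 and 2061 and 6995, 6457 and 5064 in PC, with log2 differences of 1.07 and 1.02 (limma, adjusted p = 0.00103 and 0.00124). *Fibrillarin* (*Fib*), which methylates ribosomal RNA, was at 14745, 13679 and 16169.9 in PCC and 7828, 6941 and 7156 in PC (log2 difference 1.02, SE 0.10, limma adjusted p = 0.000445). The 3 largest differences belonged to *CG12301* (1.10), *CG11180* (1.08) and *CG8545* (1.08). In the replication list, 42 of 43 were higher (97.7%) and 0 lower, with a median of 0.86. *Cdc6*, a loader of the replicative helicase, was at 2599.6, 2913 and 2992 in PCC and 1154, 1040.1 and 881 in PC (log2 difference 1.47, SE 0.13, limma adjusted p = 0.000286). *Psf1*, a subunit of the GINS complex of that helicase, and the helicase gene *RecQ4* followed at 1.32 and 1.27. In both lists the calls were nearly complete under every setting tried, with 43 to 46 ribosome assembly genes and 39 to 43 replication genes higher. In neither list did any member pass as lower in limma, edgeR or DESeq2 or reach an unadjusted p under 0.05 in that direction (0 in each case), and the same held for the lower side of the glycolysis, mitochondrial ribosomal protein and gut lists and the higher side of the blood cell list.

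Mitosis and cell cycle genes were less uniform, with 32 of 46 higher (69.6%, against 19.9% of all genes tested), 2 lower and a median of 0.59. Their median step was 0.67 for P over PC and -0.06 for PCC over P. *CycB*, the mitotic cyclin, was at 15893, 16391 and 15801 in PCC and 8853, 7721 and 6676 in PC (log2 difference 1.06, SE 0.12, limma adjusted p = 0.000665). *thr*, a subunit of the separase complex, and the condensin subunit *SMC2* had differences of 1.03 (limma, adjusted p = 0.0012) and 1.02 (limma, adjusted p = 0.00113). The 2 members that fell are known for taking cells out of the cycle. *dacapo* (*dap*), an inhibitor of Cyclin E-Cdk2, was at 985, 916 and 1037 in PCC and 1934, 1598 and 1433 in PC (log2 difference -0.75, SE 0.14, limma adjusted p = 0.00413), and *rap*, the Fizzy-related activator of the anaphase-promoting complex, at 2045, 1953 and 2344 in PCC and 5150.3, 4827 and 4689 in PC (log2 difference -1.21, SE 0.10, limma adjusted p = 0.000261). *CycE*, the partner that *dap* inhibits, did not pass and overlapped between conditions, at 8672, 7687 and 10627 in PCC and 8900.1, 7657 and 7164 in PC (log2 difference 0.18, SE 0.15, limma adjusted p = 0.371).

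The proteins of the ribosome itself differed from the factors that build it. With all libraries kept, their shares called higher were under or near that of all genes tested. Of 86 cytosolic ribosomal protein genes tested, 4 were higher (4.65%), 1 was lower (1.16%) and 81 did not pass, with a median of 0.18. Over all genes tested, 19.9% were higher and 22.7% lower. *RpL3* was at 204577, 187864 and 213329 in PCC and 144095, 138301 and 126464 in PC (log2 difference 0.57, SE 0.16, limma adjusted p = 0.027), which missed the threshold without any single library other than PC C (adjusted p 0.0509 to 0.102). The number higher was 60 without PC C and 0 without PCC A, PCC C or PC A, and the median ran from -0.02 without PC B to 0.44 without PC C. *RpS5b*, a duplicate of *RpS5a*, was the 1 lower member, at 74.1, 73.0 and 94.9 in PCC and 303, 298 and 558 in PC (log2 difference -2.19, SE 0.29, limma adjusted p = 0.00124). Of 74 mitochondrial ribosomal protein genes, 16 were higher (21.6%, against 19.9% of all genes tested) and 0 lower, with a median of 0.31, and 63 were higher without PC C. *mRpL1* was at 2294, 2329 and 2330.0 in PCC and 1238, 1138 and 1188 in PC (log2 difference 0.96, SE 0.09, limma adjusted p = 0.000342). How many of these genes pass thus changes with PC C, and the PC libraries differ along transcript length. With the length trend removed from the libraries, 35 cytosolic and 59 mitochondrial genes were higher, with medians of 0.325 and 0.492. Of 17 glycolysis genes, 10 were higher (58.8%, against 19.9% of all genes tested) and 0 lower, with a median of 0.44. *Ald* (aldolase), *PyK* (pyruvate kinase) and *Gapdh2* led with differences of 0.87 (limma, adjusted p = 0.00734), 0.82 (limma, adjusted p = 0.00116) and 0.81 (limma, adjusted p = 0.00355), while *ImpL3*, the lactate dehydrogenase of the fly, was at 14756, 11294 and 21919.7 in PCC and 10364, 10199.8 and 10191 in PC and did not pass (log2 difference 0.59, SE 0.22, limma adjusted p = 0.0698).

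**Figure D3:**
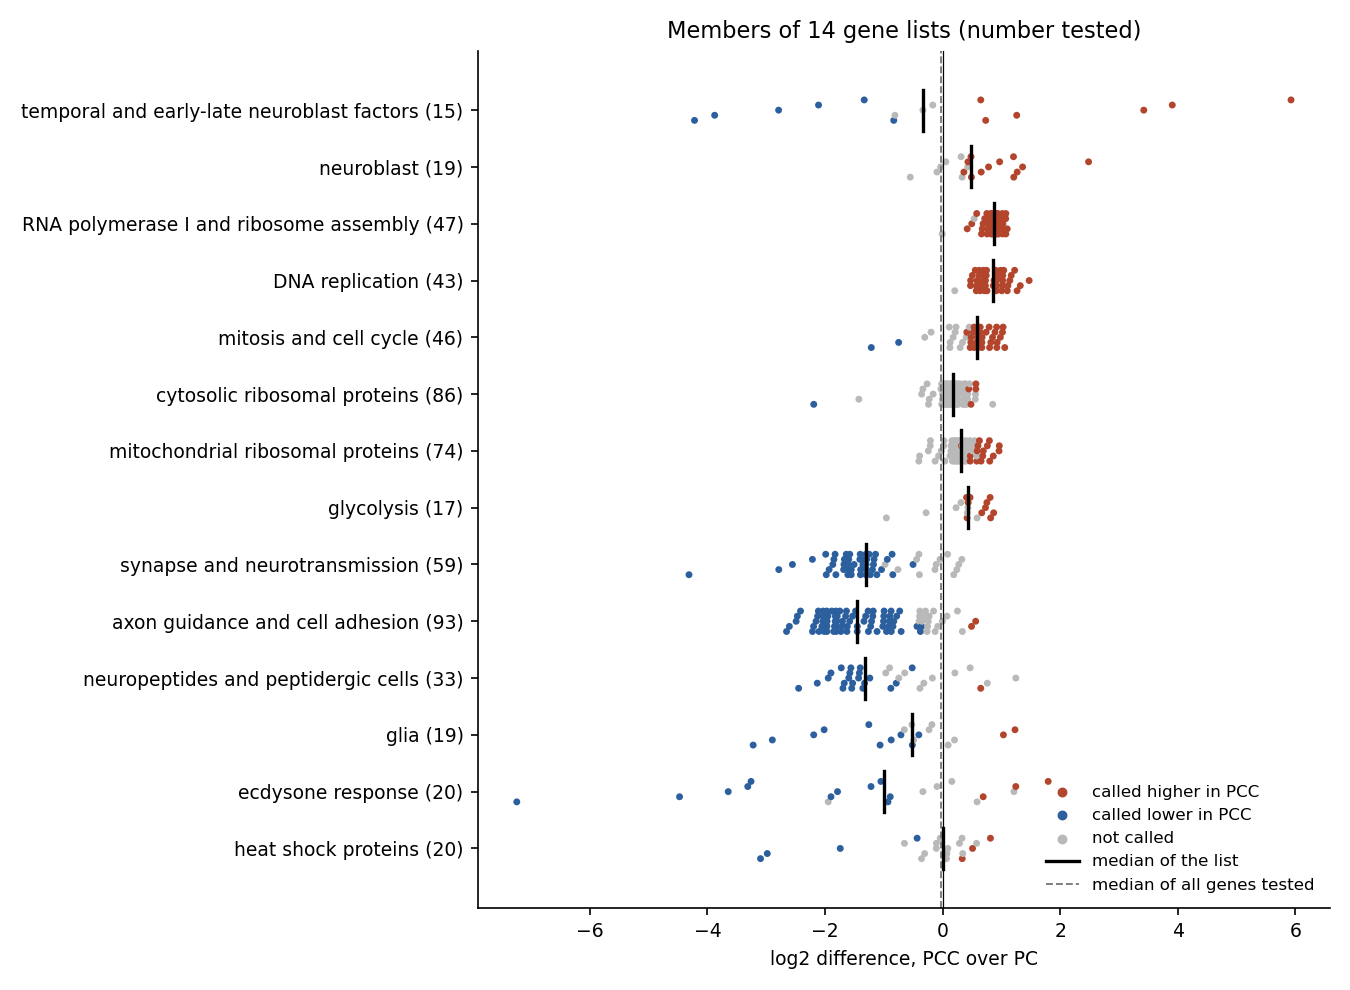
Each point is a member of a gene list, placed along the x axis by its log2 difference of PCC over PC, with the number of members tested in brackets, red and blue for members higher and lower in PCC, grey for members that did not pass, a bar at the median of the list and a dashed line at the median of all genes tested, -0.03. Ribosome assembly and replication genes are packed around medians of 0.87 and 0.86, and synaptic, axon guidance and neuropeptide genes spread over the lower side with medians of -1.31, -1.45 and -1.33.

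Genes of differentiated neurons were lower in PCC. Of 59 synapse and neurotransmission genes, 46 were lower (78%, against 22.7% of all genes tested), 0 higher and 13 did not pass, with a median of -1.31. On the higher side 1 gene had an unadjusted p under 0.05 in limma, and 1 passed in edgeR and in DESeq2. *elav*, the RNA-binding protein that marks postmitotic neurons, was at 4234, 4429 and 4676 in PCC and 14009.6, 14504 and 10896 in PC (log2 difference -1.55, SE 0.13, limma adjusted p = 0.000246). *brp*, the scaffold of the active zone, was at 3970.2, 4763 and 2484 in PCC and 10392, 13005 and 8799.9 in PC (log2 difference -1.55, SE 0.25, limma adjusted p = 0.00272), and *n-syb*, the vesicle protein synaptobrevin, at 5839, 6333 and 3279.8 in PCC and 14446, 18320.4 and 12659 in PC (log2 difference -1.60, SE 0.26, limma adjusted p = 0.00283). For each of these, the highest PCC library lay below the lowest PC library. The largest falls were in dopamine synthesis. *pale* (*ple*), tyrosine hydroxylase, was at 47.5, 118 and 28.9 in PCC and 2574, 1071 and 493 in PC (log2 difference -4.31, SE 0.69, limma adjusted p = 0.00251), or -3.71 without PC A, the library in which it was highest. *Dopa decarboxylase* (*Ddc*) was at 272, 373 and 134 in PCC and 1522, 1904 and 1559 in PC (log2 difference -2.79, SE 0.35, limma adjusted p = 0.000966). The vesicular transporters that define the transmitter classes all fell, with log2 differences of -1.61 for *VAChT* (acetylcholine), -1.85 for *VGlut* (glutamate), -1.87 for *VGAT* (GABA) and -1.35 for *Vmat* (monoamines) (limma, adjusted p = 0.00711, 0.0017, 0.00266 and 0.0104). *Shab*, *Csp*, *cac*, *dlg1*, *Snap24*, *Syx1A* and *comt* stayed within -0.11 and 0.33 and did not pass.

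Of 93 axon guidance and cell adhesion genes, 74 were lower (79.6%, against 22.7% of all genes tested) and 2 higher, with a median of -1.45. Families of cell surface receptors that sort axons were lower nearly as a whole: all 14 *beat* genes tested passed, with *beat-Ia* at 469.5, 425 and 326 in PCC and 2466, 2941 and 2039 in PC (log2 difference -2.61, SE 0.19, limma adjusted p = 0.000172). Of the 20 *dpr* genes in the list, 18 were lower, 1 was higher and 1 did not pass. *dpr7* was at 564, 643 and 347 in PCC and 2532, 2705 and 4604 in PC (log2 difference -2.65, SE 0.30, limma adjusted p = 0.00067). The adhesion molecules *Connectin* (*Con*) and *Fas2* were lower by log2 differences of -2.49 (limma, adjusted p = 0.000219) and -2.19 (limma, adjusted p = 0.000232). The 2 higher members were *dpr18* (0.56, limma adjusted p = 0.0198) and the kinase gene *Pak* (0.49, limma adjusted p = 0.0123). *dpr18* missed the threshold without PCC B, PCC C or PC A (adjusted p 0.0672 to 0.0726), and with all libraries scaled to the same total neither passed (adjusted p 0.0547 and 0.0561).

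Neuropeptide and peptidergic genes fell for 21 of 33 tested (63.6%, against 22.7% of all genes tested) and rose for 1, with a median of -1.33. *hugin* (*hug*), a feeding peptide, was at 327, 569.8 and 297 in PCC and 1402, 2143 and 3017 in PC (log2 difference -2.45, SE 0.34, limma adjusted p = 0.00138), *Ccap*, a peptide of moulting behaviour, at 394, 397 and 221 in PCC and 1111, 1110.0 and 2373 in PC (log2 difference -2.13, SE 0.36, limma adjusted p = 0.00306), and *Pdf*, the clock neuron peptide, at 1425, 1423 and 752 in PCC and 3516, 3162 and 7848 in PC (log2 difference -1.95, SE 0.39, limma adjusted p = 0.00655). The peptidases that process them, *amon* and *Pal2*, were lower too (-1.90 and -1.72, limma adjusted p = 0.000623 and 0.000925). *ETH* was the 1 higher member, at 508, 451 and 531 in PCC and 349, 306 and 294 in PC (log2 difference 0.65, SE 0.15, limma adjusted p = 0.0107). It missed the threshold with PCC A and PC C both left out (limma, adjusted p = 0.0567). It encodes the ecdysis-triggering hormone, which is made by endocrine cells on the trachea and not by neurons.

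Glial genes were lower in PCC for 10 of 19 tested (52.6%, against 22.7% of all genes) and higher for 2, with a median of -0.52. *repo*, the transcription factor of nearly all glia, was at 2086, 1968 and 1602 in PCC and 4073, 4397 and 3355 in PC (log2 difference -1.06, SE 0.15, limma adjusted p = 0.00134). *moody* and *Gli*, which serve the blood-brain barrier and septate junctions, were at 1138, 1031 and 754 and at 439, 288 and 426 in PCC, against 1835, 1915 and 1551 and 939, 1076 and 727 in PC, with log2 differences of -0.87 (limma, adjusted p = 0.00623) and -1.25 (limma, adjusted p = 0.00369). Astrocyte genes showed both directions. *alrm* was at 1495, 1818 and 599 in PCC and 8594, 9346 and 16510.5 in PC (log2 difference -3.22, SE 0.44, limma adjusted p = 0.00129), whereas *Eaat1*, a glutamate transporter of astrocytes and cortex glia, was at 15932, 18252 and 14001 in PCC and 8044, 7736 and 7606 in PC (log2 difference 1.03, SE 0.12, limma adjusted p = 0.000659). *nrv2*, a sodium pump subunit of glia, was at 14797, 18773 and 11398 in PCC and 6398, 5763 and 6620.3 in PC (log2 difference 1.23, SE 0.18, limma adjusted p = 0.00172). The list thus held more lower than higher members, while its summed level overlapped between conditions (63600 to 81401 normalized counts in PCC, 79615 to 84380 in PC).

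Genes that respond to ecdysone, the steroid that times metamorphosis, were lower for 11 of 20 tested (55%) and higher for 3 (15%), with a median of -0.99. Over all genes tested, 22.7% were lower and 19.9% higher. *Eip78C*, a nuclear receptor, was at 90.3, 70.8 and 129.6 in PCC and 2586, 2154 and 1685 in PC (log2 difference -4.47, SE 0.26, limma adjusted p = 9.13e-05). *ImpE1*, an apical protein of late larval tissues, was at 871, 558 and 1258 in PCC and 12169, 11719 and 8433 in PC (log2 difference -3.65, SE 0.29, limma adjusted p = 0.000224). The primary response genes *Eip74EF* and *Eip75B* and the receptor *EcR* were lower by log2 differences of -3.26 (limma, adjusted p = 0.000352), -1.22 (limma, adjusted p = 0.00824) and -1.05 (limma, adjusted p = 0.00203), while *usp*, the partner of the receptor, was at -0.09 (limma, adjusted p = 0.541) and did not pass. *ImpE2* was at 4.75, 0 and 459 in PCC and 2223, 3892 and 1061 in PC, and its difference of -7.24 (limma, adjusted p = 0.0236) rests on few libraries: it was -6.61 (adjusted p = 0.064) without PCC A, -5.35 (adjusted p = 0.0519) without PCC B, -9.77 without PCC C, -7.20 (adjusted p = 0.0631) without PC A and -6.80 (adjusted p = 0.0684) without PC B, and it did not pass in edgeR or DESeq2 on recovered reads (adjusted p = 0.102 and 0.143). The higher members were *E23*, an ABC transporter that lowers the ecdysone response, *ftz-f1*, a nuclear receptor of the prepupal response, and the enzyme gene *Eip55E*. *E23* was at 3254, 4149 and 2567 in PCC and 1017, 1096 and 740.0 in PC (log2 difference 1.80, SE 0.21, limma adjusted p = 0.000804). *ftz-f1* was at 3903, 4249.6 and 4061 in PCC and 1807, 1896 and 1473 in PC (log2 difference 1.25, SE 0.12, limma adjusted p = 0.000372), and *Eip55E* had a difference of 0.69 (limma, adjusted p = 0.0012).

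Of 20 heat shock protein genes, 4 were lower (20%), 3 were higher (15%) and 13 did not pass, with a median of 0.01. These shares are near or under the 22.7% lower and 19.9% higher of all genes tested. The lower ones were small heat shock proteins of 1 cluster on arm 3L. *Hsp67Bc* was at 699.6, 386 and 745 in PCC and 4966, 4883 and 5217 in PC (log2 difference -3.10, SE 0.24, limma adjusted p = 0.000205), *Hsp67Ba* at 1521, 1322 and 1467 in PCC and 9999, 12435 and 11727 in PC (log2 difference -2.98, SE 0.11, limma adjusted p = 4.99e-05), and *Hsp23* at 33798, 26504 and 37387 in PCC and 102770, 109826 and 110704 in PC (log2 difference -1.74, SE 0.16, limma adjusted p = 0.000337). *Hsp27* had a difference of -0.43 (limma, adjusted p = 0.019) and missed the threshold without PCC A, PCC B, PC A or PC B (adjusted p 0.0541 to 0.0898), whereas *Hsp26* was at 0.07 (limma, adjusted p = 0.869) and did not pass. The inducible *Hsp68* and *Hsp70Ba* did not pass either, with differences of -0.11 (limma, adjusted p = 0.914) and -0.65 (limma, adjusted p = 0.441). The higher ones were the constitutive chaperones *Hsc70-4*, at 297408, 288860 and 333381 in PCC and 178848, 181209 and 162581 in PC (log2 difference 0.81, SE 0.18, limma adjusted p = 0.00975), and *Hsp60*, with a difference of 0.51 (limma, adjusted p = 0.00829). The transcription factor *Hsf* was higher by 0.33 (limma, adjusted p = 0.0331) and missed the threshold without PCC A, PCC B, PCC C or PC A (adjusted p 0.0745 to 0.106).

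Among the 75 genes higher by a log2 difference of at least 3, the spread among PCC libraries was small in some and large in others. In 33 of them the highest PCC library was within 2 times the lowest, and 23 of these averaged 50 normalized counts or more in PCC, a set chosen after its values were seen. *mthl8* (Entrez gene 38013, 3L), a receptor of the methuselah family, was at 1469, 1572 and 1606 in PCC and 1.86, 0 and 0 in PC (log2 difference 10.09, SE 0.46, limma adjusted p = 5.62e-05). Its PC libraries held 2 reads in all against 4355 in PCC, a ratio of 2329 (95% counting interval 644 to 19238, counting error only). *CG1850* was at 283, 289.9 and 219.8 in PCC and 0, 1.15 and 0.937 in PC (log2 difference 7.36, SE 0.44, limma adjusted p = 0.000103). *CG32318* was at 83.6, 95.1 and 109.9 in PCC and at 0 in all PC libraries, and so at least 32.0-fold higher with a floor of 3 reads in each PC library. All 3 genes were below the floor of 3 reads in each PC library. *CG9975* was at 2294, 2402 and 2482 in PCC and 149.6, 65.3 and 41.2 in PC (log2 difference 5.0, SE 0.42, limma adjusted p = 0.000261), and *GstD3*, a glutathione S-transferase, at 3712, 4841 and 3051 in PCC and 213, 239 and 274 in PC (log2 difference 3.97, SE 0.19, limma adjusted p = 5.62e-05). The set also held genes known from other tissues. *BBS8* and *Oseg5*, genes of cilium transport that in flies serves sensory neurons and sperm, were at 244, 302 and 276 and at 148, 142 and 75.2 in PCC, against 16.7, 21.8 and 17.8 and 10.2, 4.58 and 9.37 in PC. *nompA*, a protein of the dendritic cap of sense organs, was at 101, 135 and 111 in PCC and 6.51, 3.44 and 5.62 in PC (log2 difference 4.26, SE 0.38, limma adjusted p = 0.000306). *topi*, a testis transcription regulator, was at 315, 428 and 290.4 in PCC and 42.7, 33.2 and 15.9 in PC, and *fs(1)Yb*, of the piRNA pathway of the gonad, at 252, 249 and 189.7 in PCC and 24.2, 25.2 and 14 in PC.

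Of the other large differences on the higher side, many followed PCC A. It was the highest PCC library in 40 of the 75 genes and more than 3 times both other PCC libraries in 23, and 21 of the 75 had a mean under 50 in both conditions. *ng3*, a salivary gland gene of the new glue family, was at 1542, 174 and 82.1 in PCC and 0, 2.29 and 0 in PC, with a difference of 7.57 (limma, adjusted p = 0.00167) that was 6.34 without PCC A and 8.45 without PCC C. *CG12310* was at 5169, 430.4 and 1012 in PCC and 3.72, 61.9 and 1.87 in PC, with a difference of 7.11 (limma, adjusted p = 0.00441) that was 6.12 without PCC A, 7.92 without PCC B, 8.48 without PC B and 6.25 without PC C. For both, every PCC library was above every PC library, but the rule by which they were named required this. *CG17134* was at 627, 127 and 19.7 in PCC and at 0 in all PC libraries, at least 85.7-fold higher with the floor of 3 reads, and its fitted difference was 5.69 without PCC A and 8.15 without PCC C. *CG14850*, *CG14265* and *CG13460* had means of 842, 161 and 1279.6 in PCC, against 0.929, 0.312 and 1.55 in PC. Without PCC A their log2 differences were 4.98, 6.11 and 5.74, against 6.85, 6.72 and 7.28 with it. The call of *CG13460* was lost without PCC A, PCC B or PC B (adjusted p 0.0501 to 0.0633), and with PCC A and PC C both left out (adjusted p = 0.103). *Ilp8*, the insulin-like peptide that damaged or overgrown imaginal discs release and that delays metamorphosis, was at 130.2, 55.3 and 304 in PCC and 0.929, 0 and 0 in PC (log2 difference 6.72, SE 0.70, limma adjusted p = 0.000512), a difference of 7.33 without PCC B and 6.11 without PCC C.

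For the large differences on the lower side, the PC libraries, where these genes are high, were steadier than the PCC libraries were on the higher side. The spread among PCC libraries was not scored here and was wide for some genes, such as *Spn43Aa* below. Of 237 genes lower by at least 3, the PC libraries were within 2 times of each other in 152, and in 5 PC C was more than 3 times both other PC libraries. *Drsl5*, a peptide related to the antifungal drosomycin, was at 0.95, 1.11 and 2.31 in PCC and 1045, 682 and 1590.5 in PC (log2 difference -8.77, SE 0.41, limma adjusted p = 5.62e-05). *Spn43Aa*, a serine protease inhibitor, was at 32.3, 4.43 and 217 in PCC and 3327, 2939 and 2481 in PC, with a difference of -6.41 (limma, adjusted p = 0.0041) that was -5.09 without PCC B and -7.75 without PCC C. *CG11099* was at 0 in all PCC libraries and at 71.6, 76.8 and 69.3 in PC, at least 22.6-fold lower with the floor of 3 reads in each PCC library. *CG34296* and *CG12539* were at 4.75, 0 and 4.63 and at 8.55, 3.32 and 18.5 in PCC, against 611, 633 and 643 and 876, 711 and 582 in PC, with log2 differences of -7.63 (-6.79 without PCC B) and -6.26. *CG13159* was at 0 in all PCC libraries and at 87.4, 466 and 68.4 in PC, at least 64.5-fold lower. The smallest adjusted p of the whole contrast also lay on this side, shared by *CG17124* and *Drep-3*. *CG17124* was at 891, 683 and 976 in PCC and 21644, 19121 and 19171 in PC (log2 difference -4.57, SE 0.15, limma adjusted p = 4.88e-05). *Cht5*, a chitinase of the moult, was at 32.3, 13.3 and 47.4 in PCC and 1102, 919.9 and 844 in PC (log2 difference -5.06, SE 0.43, limma adjusted p = 0.000273), and *NLaz*, a lipocalin of stress resistance, at 116, 46.5 and 153 in PCC and 2802, 2383 and 3817 in PC (log2 difference -4.96, SE 0.43, limma adjusted p = 0.000273). *CG17124*, *Drep-3*, *Cht5* and *NLaz* were chosen after their values were seen.

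By the difference in mean normalized counts, the largest on the higher side was *CR43283* (*cherub*), a long noncoding RNA of NBs, at 1340790, 1742810 and 1364050 in PCC and 394617, 323012 and 254620 in PC (log2 difference 2.21, SE 0.30, limma adjusted p = 0.00133). *Dcr-2*, *Hsc70-4*, *chinmo*, *RpL3* and *Imp* followed. On the lower side, *Obp44a*, an odorant-binding protein gene, was at 128212, 129382 and 112800 in PCC and 282247, 264989 and 458716 in PC (log2 difference -1.40, SE 0.25, limma adjusted p = 0.00402). *Act5C*, the cytoplasmic actin often used as a reference in quantitative PCR, was at 112486, 110032 and 115421 in PCC and 228196, 227214 and 211120 in PC (log2 difference -0.98, SE 0.15, limma adjusted p = 0.0023). *failed axon connections* (*fax*) was at 17471, 16933 and 19006 in PCC and 63282, 67065 and 52740.4 in PC (log2 difference -1.77, SE 0.13, limma adjusted p = 0.000175). *Fbp1*, a storage protein receptor of the fat body, was at 1427, 575 and 20353 in PCC and 99369, 156651 and 99502 in PC, with a difference of -5.50 (limma, adjusted p = 0.00806) that was -4.42 without PCC B and -7.0 without PCC C, and that did not pass in edgeR on recovered reads (adjusted p = 0.0519).

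Genes of tissues outside the nervous system also differed. The fat body list had 4 of 15 lower (26.7%, against 22.7% of all genes tested) and 1 higher, with a median of -1.34 and a summed level of 190448, 82850 and 141627 normalized counts in PCC and 226359, 558307 and 295250 in PC, which do not overlap. *Lsp1alpha* was at 23242, 3340.1 and 10204 in PCC and 8956, 49195 and 29115 in PC and did not pass (log2 difference -1.34, SE 0.82, limma adjusted p = 0.232). *Lsp2* was at 27019.8, 2800.2 and 14327 in PCC and 32510.5, 114211 and 56695 in PC (log2 difference -2.53, SE 0.83, limma adjusted p = 0.0434), and missed the threshold without PCC B, PCC C, PC B or PC C (adjusted p 0.0625 to 0.124). Blood cell genes were lower for 7 of 15 (46.7%, against 22.7% of all genes tested) and higher for 0, with a median of -1.06. *He* was at 212, 99.6 and 133 in PCC and 567, 661 and 1791 in PC (log2 difference -2.62, SE 0.47, limma adjusted p = 0.00399) and *srp*, a GATA factor of blood and fat body, at 228, 71.9 and 163 in PCC and 1098, 1230.3 and 716 in PC (log2 difference -2.82, SE 0.43, limma adjusted p = 0.002), but *Hml*, which marks most larval plasmatocytes, was at 4116, 1671 and 1849 in PCC and 2896, 6319.9 and 2735 in PC and did not pass (log2 difference -0.66, SE 0.43, limma adjusted p = 0.264). Summed blood cell genes overlapped between conditions, at 13850 to 28146 in PCC and 26484 to 47906 in PC.

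Tracheal genes were lower for 6 of 12 tested (50%, against 22.7% of all genes tested) and higher for 1, with a median of -1.23. Their summed level was 7247 to 9602 in PCC and 11549 to 17755 in PC. The 1 higher member, *bs*, had a log2 difference of 0.38. It lost the call in 9 of 21 alternatives, among them the fit without PCC A. *trh* and *btl*, which specify and guide tracheal cells, were at 519.9, 371 and 362 and at 68.4, 60.9 and 50.9 in PCC, against 1513, 1789 and 1285 and 307, 299 and 154 in PC (limma, adjusted p = 0.000462 and 0.00261). Of 45 cuticle genes, 12 were lower (26.7%) and 7 higher (15.6%), near the 22.7% and 19.9% of all genes tested, with a median of -0.78. *Cpr49Ac* was at 1229, 123 and 2314 in PCC and 16149, 15515 and 11432 in PC, with a difference of -4.33 (limma, adjusted p = 0.00998) that was -3.07 without PCC B and -5.19 without PCC C. *Lcp65Ag3*, on the other hand, was at 30.4, 23.2 and 27.8 in PCC and at 0 in all PC libraries, at least 9.01-fold higher with the floor of 3 reads, although near-identical copies of it share reads. Muscle genes were lower for 9 of 25 (36%, against 22.7% of all genes tested), with a median of -0.99. They were higher for 0 (1 at an unadjusted p under 0.05 in limma, 2 in edgeR and 1 in DESeq2). *Mhc*, the myosin heavy chain, was at 1183, 552 and 134 in PCC and 546, 362 and 324 in PC and did not pass (log2 difference 0.15, SE 0.71, limma adjusted p = 0.894).

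Gut genes are where PCC A stands apart. Of 29 tested, 2 were higher (6.9%, against 19.9% of all genes tested) and 0 lower, and the median was 1.16. Without PCC A, 2 were higher and 2 lower, and the median was -0.70. The trypsin genes *alphaTry* and *betaTry* were at 323, 1.11 and 0 and at 1169, 5.53 and 4.63 in PCC, against 0.929, 16 and 3.75 and 0, 16 and 1.87 in PC. In PCC B and C these defining genes were within 6 normalized counts of 0. Of 10 salivary gland glue genes tested, 3 were higher (30%), 2 were lower (20%) and 5 did not pass. Over all genes tested, 19.9% were higher and 22.7% lower. The *new glue* genes *ng1*, *ng2* and *ng3* were higher in PCC, while the glue genes of the late larva *Sgs4* and *Sgs5* were lower, *Sgs4* at 1.90, 5.53 and 3.47 in PCC and 24.2, 215 and 45.9 in PC (log2 difference -3.85, SE 0.82, limma adjusted p = 0.0083, -2.97 without PC B and -4.52 without PC A). *Sgs7* and *Sgs8* were at 91.2, 11.1 and 83.3 and at 14.3, 5.53 and 25.5 in PCC, against 3.72, 60.7 and 9.37 and 2.79, 47.0 and 9.37 in PC, and did not pass (limma, adjusted p = 0.287 and 0.92). *Sgs3* had a log2 difference of -2.52 and did not pass, though it was called lower in 2 of 21 alternatives. The part of these tissues in the genes of the whole contrast was not tested. With PCC A and PC C both left out, a setting chosen after the data were seen, 2290 genes were higher and 2429 lower, and 4120 of the 4909 called genes that could still be tested (83.9%) passed in the same direction.

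**Figure D4:**
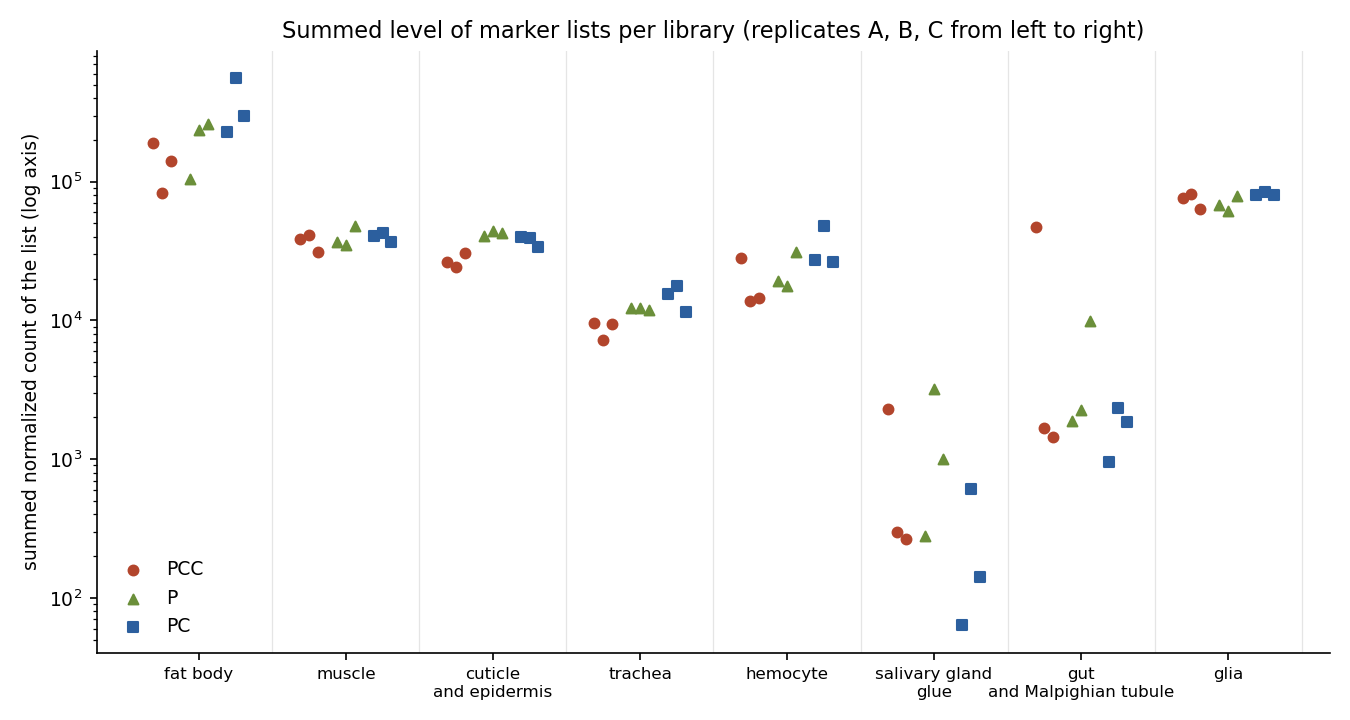
Summed normalized counts of marker lists per library on a log axis, with replicates A, B and C from left to right, PCC (circles), P (triangles) and PC (squares) for each tissue. Gut and Malpighian tubule genes are at 47304 in PCC A and at 2323 or less in the other PCC and the PC libraries. In P they are at 1884, 2251 and 9838 in A, B and C. Fat body, cuticle and trachea are lower in every PCC than in every PC library, and glia, muscle, blood cells and salivary gland overlap between PCC and PC.

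The contrast also reaches genes that neither single step of Chinmo level reaches. In the same test, P was higher than PC for 1617 of 11470 genes (14.1%) and lower for 2048 (17.9%), and PCC was higher than P for 1077 of 11057 (9.74%) and lower for 913 (8.26%). The contrast of PCC and PC is the sum of these steps and shares its libraries with them, so the counts below are descriptions, with no test. Of the 4931 genes called between PCC and PC, 3821 also passed in at least 1 step, 1068 passed in neither although tested in both (21.7% of the called genes and 9.22% of those tested), and the rest were not tested in both. Of the 1068, 477 were higher in PCC (4.12% of the genes tested) and 591 lower (5.1%). They were smaller differences than the contrast as a whole, with a median of 1.40-fold for the higher and 2.33-fold for the lower genes, and 335 (70.2%) and 138 (23.4%) under 1.5-fold. For the higher genes the median log2 step was 0.31 for P over PC and 0.20 for PCC over P, and for the lower genes -0.48 and -0.69. Most were close to the threshold in a step: the median adjusted p of the nearer step was 0.088 (limma), and 628 of the 1068 had a step under 0.1. The median adjusted p between PCC and PC was 0.0226 for them and 0.00319 for the other called genes. Their number rose with any P library left out, to 1177 higher and 1180 lower without P A, 1362 and 1235 without P B, and 779 and 705 without P C. Such a fit leaves the calls between PCC and PC as they are and takes 1 library from each step. Fewer libraries in the steps and the choice of library therefore cannot be told apart.

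Against that share of 9.22% over all genes tested, such genes were 14 of 59 in the synapse list, 10 of 33 neuropeptide, 6 of 17 glycolysis, 5 of 25 muscle and 11 of 93 axon guidance genes. The other lists held 0 to 4 each, with 4 of 43 replication, 4 of 46 mitosis, 1 of 19 NB and 0 of 47 ribosome assembly genes. The shares in axon guidance, replication and mitosis were close to that of all genes. *Gapdh2* is one of them, at 50130.2, 58428 and 43749 in PCC and 26587, 29395 and 30509 in PC, with P between at 36496, 28824 and 40885 (steps of 0.28 for P over PC and 0.52 for PCC over P, limma adjusted p = 0.208 and 0.0607). *CG18649* had the largest difference on the higher side, at 1818, 180.3 and 241 in PCC and 5.58, 2.29 and 0.937 in PC, with P at 5.57, 106 and 5.82. Its difference of 6.95 (limma, adjusted p = 0.00116) was 5.91 without PCC A and 7.58 without PCC B. *CG13947* was at 1832, 260.0 and 1057 in PCC and 5.58, 20.6 and 3.75 in PC, with P at 13.9, 434 and 0.832, and its difference of 6.51 (limma, adjusted p = 0.00103) was 5.91 without PCC A, 7.31 without PCC B and 7.16 without PC B. The P libraries differed among themselves by more than 10-fold for both genes. *ng1* and *ng2* were at 337, 43.1 and 27.8 and at 312, 45.4 and 38.2 in PCC and at 0 in all PC libraries, at least 45.2-fold and 43.8-fold higher with the floor of 3 reads, and at 2.78, 134 and 2.5 and at 0, 86.9 and 0 in P. *PH4alphaSG1*, a prolyl hydroxylase of the salivary gland, was at 162, 21.0 and 12.7 in PCC and at 0 in PC, at least 21.6-fold higher. In each of the 3, PCC A was several times the other PCC libraries, and without it the fitted log2 differences were 5.16, 5.41 and 4.12, against 6.24, 6.37 and 5.19 with it.

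On the lower side, *CG9021* was at 1.90, 4.43 and 9.26 in PCC and 3588, 74.5 and 3676 in PC, with P at 136, 1218 and 11.6 and a difference of -7.52 (limma, adjusted p = 0.00557) that was -9.38 without PC B, the library that departs, -6.60 without PC A and -6.58 without PC C. *CG4914* had the smallest standard error of the 8 genes named by size, at 12.4, 7.74 and 25.5 in PCC and 237, 203 and 152 in PC, with P at 87.2, 191 and 31.6 (log2 difference -3.74, SE 0.45, limma adjusted p = 0.000846; steps of -1.25 and -2.49). *Lectin-galC1*, a galactose-binding lectin, was at 1.90, 9.96 and 10.4 in PCC and 47.4, 187 and 231 in PC, with P at 36.2, 177 and 18.3 (log2 difference -4.17, SE 0.78, limma adjusted p = 0.00474, -3.52 without PCC A and -4.87 without PC A). *TwdlE*, a cuticle protein, was at 9.50, 3.32 and 34.7 in PCC and 178, 235 and 84.3 in PC, with P at 75.1, 62.8 and 16.6 (log2 difference -3.70, SE 0.78, limma adjusted p = 0.00808, -2.98 without PCC B and -4.51 without PCC C). In each of these, P lay between the conditions by its mean and overlapped PC or PCC in single libraries.

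**Figure D5:**
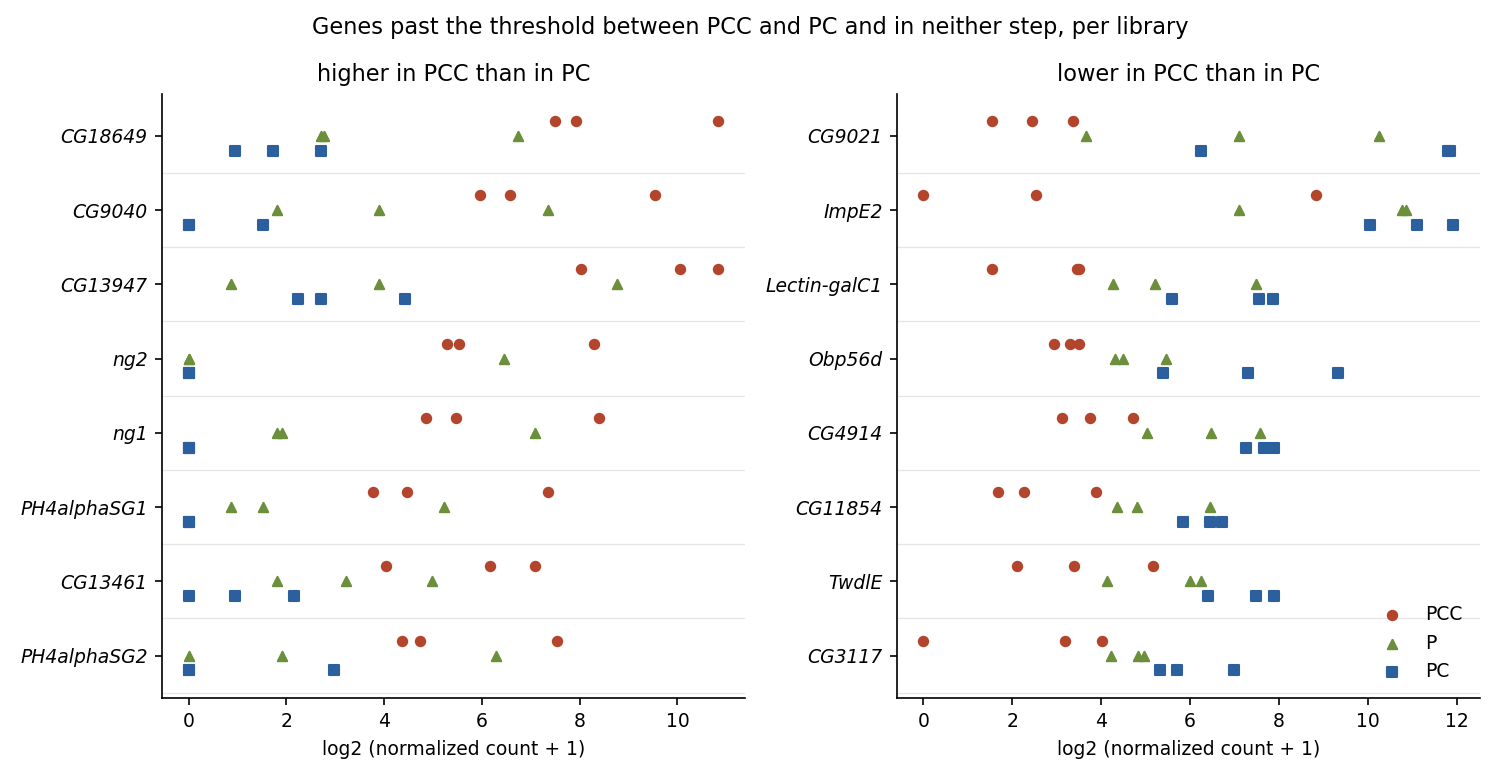
The 8 genes with the largest difference in each direction among those called between PCC and PC and in neither step, with log2 of the normalized count plus 1 in each PCC (circles), P (triangles) and PC (squares) library. P spreads widely and overlaps PCC or PC in single libraries, as for *ng1* and *ng2*, where P B lies above PCC B and C. Points at 0 coincide, as for the 3 PC libraries of *ng1*, *ng2* and *PH4alphaSG1*.

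Finally, some genes did not pass through P in order, and their number was not counted. The median steps of the heat shock list were -0.49 for P over PC and 0.39 for PCC over P. Those of the salivary gland list were 2.65 and -2.16. The genes below were chosen after their values were seen. *E23*, higher in PCC than in PC, was lower in P than in both, at 183, 248 and 245, with steps of -2.07 for P over PC and 3.86 for PCC over P (limma, adjusted p = 0.000553 and 0.000205). *CG10005* was at 2767, 2804 and 3577 in PCC and 80.9, 125 and 99.3 in PC (log2 difference 4.90, SE 0.20, limma adjusted p = 4.99e-05), and at 48.2, 49.2 and 37.4 in P, again below both, with steps of -1.15 and 6.05 (limma, adjusted p = 0.0143 and 1.73e-05). The reverse held for *CycE*, which was higher in P, at 15119.5, 13509 and 12403, than in PCC or PC. Its steps of 0.79 and -0.61 (limma, adjusted p = 0.00328 and 0.0229) add up to the difference of 0.18 between PCC and PC that did not pass.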

How the data were processed

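RNA of VNCs pooled from larvae of 3 conditions was sequenced by the authors as stranded poly-A libraries, single reads. The authors aligned the reads to dm3 with TopHat 2.0.9 and Bowtie 2.1.0, discarded alignments with over 3 mismatches, counted reads on genes by strand with HTSeq 0.5.3p9 and normalized them with DESeq. The deposited values are a signal: reads divided by a size factor per library. All values (100%) came out as whole reads within 0.001, so reads could be recovered. Of 15340 genes, 1415 have no reads in any library. The annotation at hand, of a later release, served only for names, transcript lengths (99.1% of genes) and gene order; sequences and coordinates were not used here.

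Conditions were grouped by genotype label. For PCC and PC, values were put on a log2 scale with a pseudocount of 1 (low genes change by more than this scale shows) and fitted with limma 3.58.1 (R 4.3.3), eBayes and a mean-variance trend. Genes entered where the 6 libraries summed to 15 or more, and p-values were adjusted by Benjamini-Hochberg over all of them, with a threshold of 0.05. The steps P over PC and PCC over P were fitted likewise. Counting intervals and floors cover counting error only. The fit was tested on simulated reads with the same dispersion for every gene and with neither a length trend nor an outlying library. That test does not cover the spread between the libraries used here. Genes were named by a rule: the targets, genes the study names, cell type markers, the 12 largest and 12 smallest differences with no overlap and a mean of at least 50, the 8 in each direction among genes called in neither step, the 6 in each direction by count, and the extremes of each of 23 gene lists. Members of lists outside these were named after their values were seen. Members and lists were chosen with earlier results of these data known. Genes called in a single step but not between PCC and PC are not reported, since the comparisons share libraries. The alternatives were other pseudocounts, filters, scalings and models, edgeR 4.0.16 and DESeq2 1.42.0 on recovered reads, a replicate block, a length correction and each library left out. Figures used matplotlib 3.10.9.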

Additional observations from a re-analysis of the deposited data

How the results depend on the processing

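Of the genes called between PCC and PC that could be tested in an alternative, 78% to 99.8% passed in the same direction, and 0 passed in the opposite one. The main counts were 2305 genes higher and 2626 lower, and 477 and 591 called in neither step. With the transcript length trend removed, 3497 were higher, and 43.3% of the calls were lower, against 44.3% in edgeR (2853 higher, 2270 lower) and 52.4% in DESeq2 (2529 and 2785). Scaling to the same total gave 64.8% lower and shifted the median of all genes to -0.151, and quantile normalization gave 42.6% lower and a median of 0.114; the main median was -0.03. Genes in neither step numbered 303 higher with scaling to the same total, 265 higher in DESeq2 and 926 lower in a fit of all 9 libraries. With PCC A and PC C both left out, a setting chosen after seeing the data, 362 were lower. Leaving out 1 library gave 1682 (without PCC B) to 2859 (without PC C) genes higher and 2094 (without PC B) to 2809 (without PC C) lower, and 298 (without PCC A) to 1362 (without P B) higher and 372 (without PCC C) to 1235 (without P B) lower in neither step.

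The replicate letters are not stated to pair libraries, and deviations from the condition means of same-lettered PCC and PC libraries correlated across genes at 0.167 for A, -0.00887 for B and 0.112 for C. A replicate block gave 1815 genes higher and 2355 lower, and 627 and 682 in neither step.

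Depth limits genes near 3 reads. In the fifth of genes with the shortest transcripts the median standard error was 0.445, and 6.78% were higher and 13.4% lower. Of 177 named genes called, 154 kept the call in each alternative run.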

Other observations

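Genes were not spread evenly between the directions along the genome. On chromosome 4, which is small and largely heterochromatic, 7 of 88 genes tested (7.95%) were higher and 28 (31.8%) lower in PCC, with a median log2 difference of -0.22. On the other arms, 18.2% (2L) to 22.3% (X) were higher and 20.9% (X) to 23.8% (2L) lower, with medians from -0.11 to 0.03. These shares are given with no test.

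Among 173 long noncoding RNAs tested, 19 were higher (11%) and 34 lower (19.7%), against 19.9% and 22.7% of all genes tested. Besides *CR43283*, *CR31386* was at 17552, 20669 and 20966 in PCC and 6402, 4856 and 9220.5 in PC (log2 difference 1.58, SE 0.22, limma adjusted p = 0.00156), and *CR43334* at 1089, 1015 and 1359 in PCC and 375, 322 and 283 in PC (log2 difference 1.82, SE 0.17, limma adjusted p = 0.000352). *CR31781* was lower, at 179.6, 185 and 99.5 in PCC and 1067, 1277 and 1122 in PC (log2 difference -2.94, SE 0.25, limma adjusted p = 0.000286). The RNAs that target dosage compensation to the male X went in opposite directions. *roX1* was at 69395, 73495 and 74027 in PCC and 49509.7, 39220.5 and 38899 in PC (log2 difference 0.77, SE 0.14, limma adjusted p = 0.00413), and *roX2* at 559.8, 569.8 and 473 in PCC and 1439, 932 and 2977 in PC (log2 difference -1.57, SE 0.38, limma adjusted p = 0.0139). The median of the dosage compensation list of 4 genes was -0.04 and changed sign among the alternatives (-0.17 to 0.11). Of 181 snoRNA and snRNA genes, which poly-A selection captures poorly, 3 were higher and 0 lower.

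Some of the genes with the largest differences lie next to each other in the RefSeq gene order. *CG14265*, *ng2*, *ng3* and *ng1* are 4 consecutive genes on the X, all higher in PCC. *CG12310*, *CG13461*, *CG18649* and *CG13460* lie within a stretch of arm 3L with 1 gene between each and the next, all higher in PCC. *CG7906* and *CG7924* flank *CG34244* on 3L, and all 3 were lower: *CG34244* was at 0.95, 0 and 1.16 in PCC and 473, 279.5 and 362 in PC, *CG7906* at 0, 1.11 and 0 in PCC and 247, 91.6 and 89.9 in PC, and *CG7924* at 7.60, 4.43 and 3.47 in PCC and 1177, 735 and 357 in PC.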
